A study of Mus musculus with 19 samples.

Results

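This account covers 8 genes of purinergic and adenosine signalling in hippocampal microglia of mice, chosen by name out of 23951 genes in each of 2 deposited expression tables. They are P2ry12, P2ry13 and P2ry6, which encode G protein-coupled nucleotide receptors, P2rx4 and P2rx7, which encode ATP-gated ion channels, Entpd1 and Nt5e, which encode enzymes that break down extracellular nucleotides, and Adora3, which encodes an adenosine receptor. All 8 are rows of both tables. Of these, 7 reached a mean of 1 FPKM (sequenced fragments divided by transcript length and by the size of the library) in either table and were tested, and Nt5e did not.

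RNA was sequenced from CD11b+CD45 cells sorted from the hippocampus, in 15 libraries that make up 5 groups of 3. At 4.5 months of age the groups were CK-p25 PU.1 cKO (Cx3cr1CreER+/-, CK-p25, PU.1 fl/fl), CK-p25 (Cx3cr1CreER+/-, CK-p25) and CK (Cx3cr1CreER+/-, CK, littermate controls). All 3 received tamoxifen at 50 mg/kg on 5 days at the time of p25 induction, which began at 3 months, and tissue was taken 6 weeks later. At 3 months the groups were PU.1 cKO (PU.1 fl/fl, Cx3cr1CreER+/-) and Cx3cr1CreER+/- controls, both with the same tamoxifen doses and with tissue taken 1 week after them. Every mouse in these 5 groups therefore carried the tamoxifen-inducible Cre at the Cx3cr1 locus and was given tamoxifen, so no group shows the state without them. In the CK-p25 line, p25, an activator of the kinase Cdk5, is switched on in forebrain neurons and not in microglia, and neurons are then lost. Cx3cr1 is also active in border macrophages and in some monocytes, so the deletion of PU.1, the transcription factor encoded by Spi1, is not limited to microglia. Whether replicate libraries came from different mice is not stated in the labels, so the p-values measure only the spread between libraries, which may be technical.

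The labels of the 3-month libraries contradict each other. Titles and descriptions assign the columns one way and the source names the other way, and the titles were followed here. Spi1 went against the titles: its FPKM was 409, 338 and 337 where the title says PU.1 cKO, against 261, 105 and 248 where it says control (log2 difference 0.92 ± 0.35 SE, limma adjusted p = 0.0853). The names labelled PU.1 cKO and labelled control are kept for that reason, and the other reading would turn round every 3-month direction given below. In the 4.5-month set Spi1 had an FPKM of 165, 152 and 224 in CK-p25 PU.1 cKO, 251, 208 and 298 in CK-p25 libraries, and 256, 230 and 251 in CK, and neither difference of CK-p25 PU.1 cKO passed the test (adjusted p = 0.745 against CK-p25 and 0.0751 against CK, limma).

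Extracellular ATP and ADP act on P2X channels and P2Y receptors, and the nucleotides are cut stepwise to adenosine, which acts on receptors of its own. In microglia P2ry12 is best known as the receptor that steers processes towards a source of ADP or ATP, and its transcript is a standard marker of the homeostatic state. P2rx4 and P2rx7 are known from activated microglia, in pain signalling and in inflammasome activation.

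P2ry12 and P2ry13 are neighbours on chromosome 3, and P2rx4 lies next to P2rx7 on chromosome 5. The 250 bases before the RefSeq start (GRCm38.p6, read 5′ to 3′ on the strand of the gene) are shown for the 2 genes that were lower and the gene that was higher in CK-p25 than in CK by the widest margins. Capitals mark 2 core motifs of the kind bound by PU.1 and other ETS factors, GAGGAA and AGGAAG, which were searched on both strands and overlap each other by 5 bases.
P2ry12, chr3:59262986-59263235, minus strand: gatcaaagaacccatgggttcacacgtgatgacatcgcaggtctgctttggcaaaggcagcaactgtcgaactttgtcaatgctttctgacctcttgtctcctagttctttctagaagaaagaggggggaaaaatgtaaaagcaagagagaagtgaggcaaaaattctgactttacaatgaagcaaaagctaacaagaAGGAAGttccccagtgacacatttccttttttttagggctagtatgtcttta
P2ry13, chr3:59210883-59211132, minus strand: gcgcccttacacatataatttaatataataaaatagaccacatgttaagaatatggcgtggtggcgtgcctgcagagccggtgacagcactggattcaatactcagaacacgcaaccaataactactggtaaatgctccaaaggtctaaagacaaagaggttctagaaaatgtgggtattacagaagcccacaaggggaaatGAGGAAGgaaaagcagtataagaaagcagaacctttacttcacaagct
P2rx4, chr5:122707294-122707543, plus strand: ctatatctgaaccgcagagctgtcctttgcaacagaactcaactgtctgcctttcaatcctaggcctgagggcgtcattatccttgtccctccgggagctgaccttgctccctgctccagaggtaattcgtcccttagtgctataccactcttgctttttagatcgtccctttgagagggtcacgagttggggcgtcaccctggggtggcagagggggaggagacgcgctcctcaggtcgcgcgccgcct
AGGAAG begins 52 bases before the start of P2ry12. In P2ry13 the motifs begin 48 bases (GAGGAA) and 47 bases (AGGAAG) before the start and share their letters. Neither motif occurs in the P2rx4 window. Over the full window of 300 bases, which adds 50 bases after the start, 28.3% of 32851 RefSeq promoters hold GAGGAA, 35.4% hold AGGAAG and 46.0% hold either. Of the 9 windows listed for 7 of the 8 genes, 6 hold either motif. The windows also differ in base composition: the P2ry12 and P2ry13 windows each have 42.3% G or C, with 4 and 6 CpG dinucleotides, and the P2rx4 window has 60.3% with 18, against a median of 52.7% and 7 over all promoters. These matches describe letters in the reference genome and not binding.

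P2ry12, P2ry13 and Entpd1 fell and P2rx4 rose in CK-p25 against CK, so that genes of the same signalling system moved in opposite directions. In CK-p25 PU.1 cKO against CK those 4 passed the test as well, with the same signs, and P2ry6, P2rx7 and Adora3 also fell. No gene of the 8 passed the test between CK-p25 PU.1 cKO and CK-p25. At 3 months, P2ry12, P2ry13, P2rx7, Entpd1 and Adora3 were higher in labelled PU.1 cKO than in labelled control libraries, a direction that rests on the titles.

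**Figure D1:**
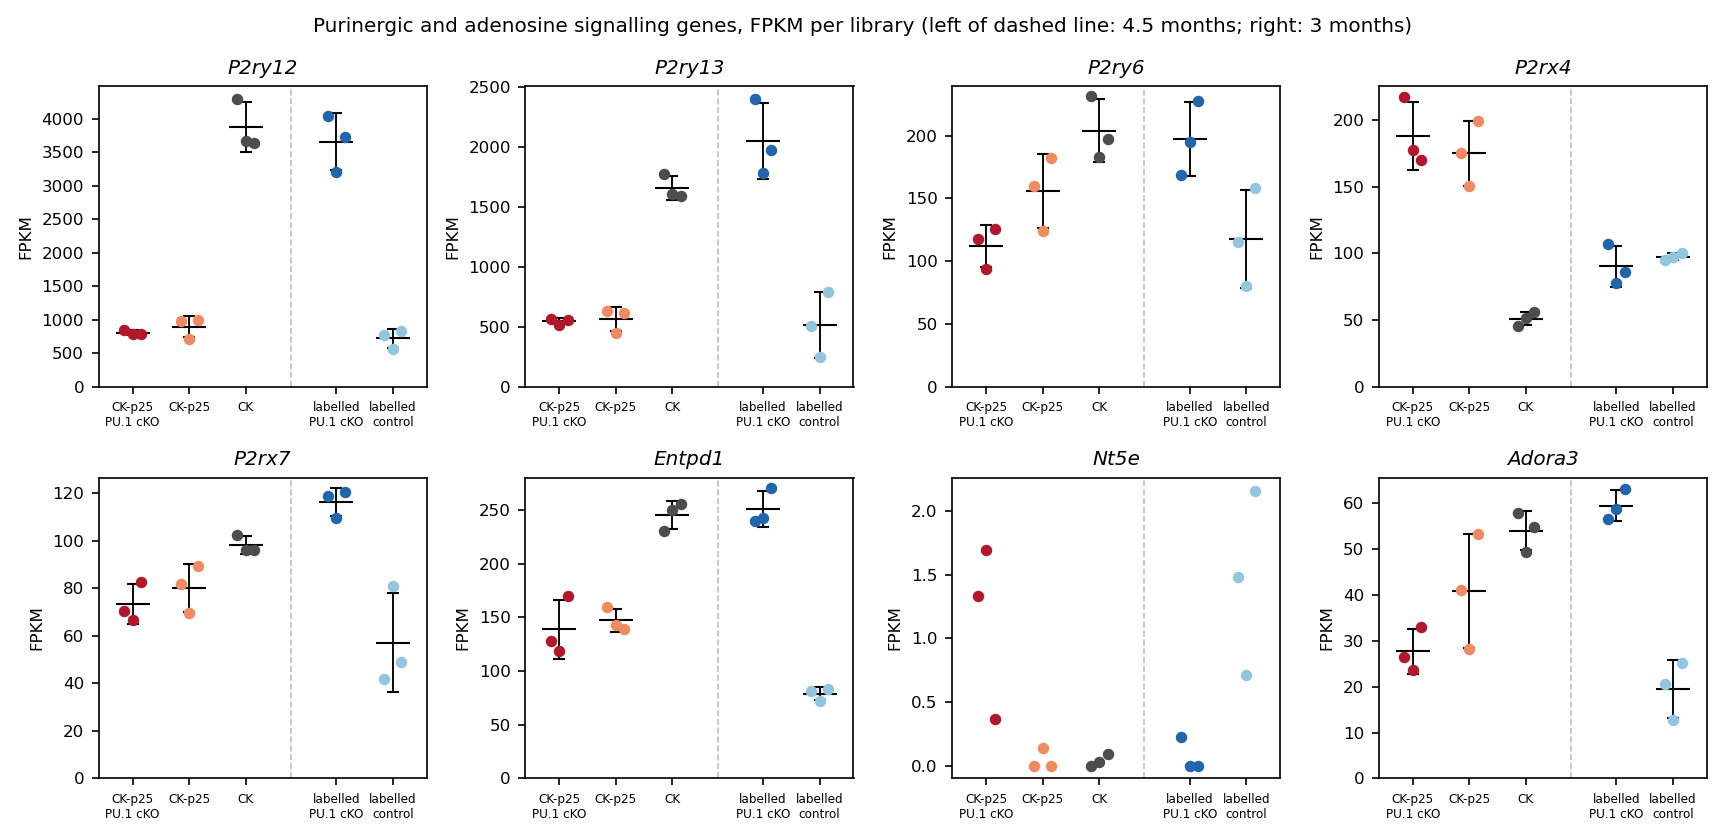
Each panel plots the FPKM of 1 gene on a linear axis, with a point per library, a bar at the mean and whiskers of 1 SD over 3 libraries (none for Nt5e, which is listed at 0 in several libraries); 4.5-month groups stand left of the dashed line and 3-month groups right of it. P2ry12 lies between 717 and 999 FPKM in the 6 libraries with p25 and between 3637 and 4301 in CK, whereas P2rx4 is highest in CK-p25 PU.1 cKO and CK-p25.

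P2ry12, the ADP receptor that inhibits adenylyl cyclase, had the highest level of the 8 genes in every group. Its FPKM was 848, 783 and 791 in CK-p25 PU.1 cKO, 983, 717 and 999 in CK-p25 libraries, and 4301, 3673 and 3637 in CK. All 6 libraries with p25 lay below all 3 CK libraries. The mean in CK-p25 was 23.2% of that in CK (900 ± 158 against 3870 ± 373 FPKM, SD, n = 3 each), and the difference was -2.12 ± 0.14 on the log2(FPKM + 1) scale (SE of the limma model, adjusted p = 3.48e-05). CK-p25 PU.1 cKO averaged 808 ± 35.5 FPKM (SD, n = 3), a log2 difference of -2.26 ± 0.14 from CK (adjusted p = 2.76e-05, limma). Only 103 of the 10894 tested genes had a lower log2 difference than P2ry12 between CK-p25 and CK. The difference between CK-p25 PU.1 cKO and CK-p25 was -0.14, with a 95% interval from -0.46 to 0.18 and overlapping libraries.

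At 3 months P2ry12 measured 4040, 3203 and 3734 FPKM in labelled PU.1 cKO libraries, against 768, 566 and 838 FPKM in labelled control libraries. The groups did not overlap, with a mean of 3659 ± 424 against 724 ± 141 FPKM (SD, n = 3 each) and a log2 difference of 2.35 ± 0.24 (limma adjusted p = 0.00084).

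P2ry13, a second receptor for ADP, had an FPKM of 564, 518 and 560 in CK-p25 PU.1 cKO, 631, 451 and 613 in CK-p25 libraries, and 1776, 1607 and 1590 in CK. Here too the libraries with p25 and those without did not overlap. The mean in CK-p25 was 34.1% of that in CK (log2 difference -1.57 ± 0.13, limma adjusted p = 0.000108). The log2 difference of CK-p25 PU.1 cKO from CK was -1.60 ± 0.13 (adjusted p = 9.54e-05, limma), and that from CK-p25 was -0.03 with a 95% interval from -0.34 to 0.28. At 3 months it measured 2398, 1780 and 1972 FPKM in labelled PU.1 cKO libraries, against 506, 245 and 790 FPKM in labelled control libraries. The labelled control libraries spread widely, and the log2 difference was 2.14 ± 0.41 (limma adjusted p = 0.00911).

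P2ry12 FPKM per P2ry13 FPKM was 1.5, 1.51 and 1.41 in CK-p25 PU.1 cKO, 1.56, 1.59 and 1.63 in CK-p25 libraries, and 2.42, 2.29 and 2.29 in CK. Every CK library had a higher ratio than every library with p25, and the ratio was not tested. P2ry12 and P2ry13 lie inside the gene Med12l on the opposite strand in the RefSeq annotation, and the library kits do not mark strand, so reads of these genes in shared sequence cannot be told apart. Med12l had an FPKM of 1.39, 1.34 and 1.32 in CK-p25 PU.1 cKO, 1.53, 1.30 and 1.14 in CK-p25 libraries, and 3.12, 3.87 and 3.68 in CK, levels far below those of both receptors.

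P2ry6, a receptor for UDP known in microglia for phagocytosis, had an FPKM of 118, 93.6 and 126 in CK-p25 PU.1 cKO, 160, 124 and 183 in CK-p25 libraries, and 232, 183 and 197 in CK. The highest CK-p25 library lay just under the lowest CK library, and CK-p25 PU.1 cKO was lower than CK in every library. It fell in CK-p25 PU.1 cKO against CK by 0.86 ± 0.17 on the log2 scale (limma adjusted p = 0.00638). The difference of CK-p25 from CK was -0.40 ± 0.17 and did not pass (adjusted p = 0.112, limma), although it did without CK-p25 replicate 3 (-0.52, adjusted p = 0.0442), with a replicate block (adjusted p = 0.0331) and with quantile normalization (-0.76, adjusted p = 0.00509). Between CK-p25 PU.1 cKO and CK-p25 the difference was -0.46, with a 95% interval from -0.85 to -0.07 before adjustment and an adjusted p of 0.745 (limma). At 3 months P2ry6 measured 169, 195 and 227 FPKM in labelled PU.1 cKO libraries, against 115, 80.4 and 158 FPKM in labelled control libraries, which did not pass the test (log2 difference 0.78 ± 0.27, limma adjusted p = 0.0641). It did in 4 alternatives: without the labelled control replicate 3 (1.01, adjusted p = 0.0244), with a replicate block (adjusted p = 0.0421), after median centring (0.87, adjusted p = 0.0443) and with quantile normalization (1.07, adjusted p = 0.0041, limma).

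P2rx4, an ATP-gated calcium-permeable channel, was the only one of the 7 tested genes that rose in CK-p25 PU.1 cKO or CK-p25 against CK. It had an FPKM of 217, 178 and 170 in CK-p25 PU.1 cKO, 176, 151 and 199 in CK-p25 libraries, and 45.8, 51.7 and 56.0 in CK. All 6 libraries with p25 lay above all 3 CK libraries. The mean was 3.42 times that of CK in CK-p25 (175 ± 24.4 against 51.2 ± 5.14 FPKM, SD, n = 3 each), with a log2 difference of 1.75 ± 0.14 (limma adjusted p = 7.62e-05). In CK-p25 PU.1 cKO the log2 difference from CK was 1.85 ± 0.14 (adjusted p = 5.77e-05, limma), and that from CK-p25 was 0.10 with a 95% interval from -0.21 to 0.42. The 3-month groups overlapped, at 107, 77.8 and 85.8 FPKM in labelled PU.1 cKO libraries and 95.3, 97.3 and 100.2 FPKM in labelled control libraries (log2 difference -0.12, 95% interval from -0.54 to 0.29, limma adjusted p = 0.61). P2rx4 overlaps Camkk2, a kinase gene at 5.45 to 9.05 FPKM across the 4.5-month libraries.

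P2rx7, the channel that opens at high ATP and triggers the NLRP3 inflammasome, is the neighbour of P2rx4 on the chromosome. It had an FPKM of 70.2, 66.8 and 82.7 in CK-p25 PU.1 cKO, 81.6, 69.5 and 89.2 in CK-p25 libraries, and 102, 96.1 and 96.1 in CK. All libraries with p25 lay under the lowest CK library. The log2 difference from CK was -0.42 ± 0.12 in CK-p25 PU.1 cKO, which passed (limma adjusted p = 0.024), and -0.30 ± 0.12 in CK-p25, which did not (adjusted p = 0.0843). Leaving out replicate 1 or 2 of CK-p25 PU.1 cKO, or any of the 3 CK libraries, ended the first call (adjusted p from 0.062 to 0.089), and CK-p25 against CK passed without CK-p25 replicate 3 (-0.38, adjusted p = 0.0296, limma) and with quantile normalization (-0.51, adjusted p = 0.00626). P2rx7 was higher in labelled PU.1 cKO libraries, at 119, 110 and 121 FPKM, against 41.6, 80.8 and 48.8 FPKM in labelled control libraries (log2 difference 1.07 ± 0.26, limma adjusted p = 0.0193). Leaving out any labelled PU.1 cKO library, or labelled control replicate 1 or 3, ended that call (adjusted p from 0.0516 to 0.0713).

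P2rx4 FPKM per P2rx7 FPKM was 3.09, 2.66 and 2.05 in CK-p25 PU.1 cKO, 2.15, 2.17 and 2.24 in CK-p25 libraries, and 0.447, 0.538 and 0.583 in CK. The order of these channel genes was thus reversed: P2rx4 was the higher in every library with p25 and P2rx7 in every CK library. At 3 months, where no library had p25, both orders occurred. The ratio was 0.903, 0.709 and 0.712 in labelled PU.1 cKO libraries, against 2.29, 1.20 and 2.05 in labelled control libraries. Set against P2ry12, there were 256, 227 and 214 FPKM of P2rx4 per 1000 FPKM of P2ry12 in CK-p25 PU.1 cKO, 179, 210 and 200 in CK-p25 libraries, and 10.6, 14.1 and 15.4 in CK. The same measure was 26.6, 24.3 and 23.0 in labelled PU.1 cKO libraries, against 124, 172 and 120 in labelled control libraries.

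**Figure D2:**
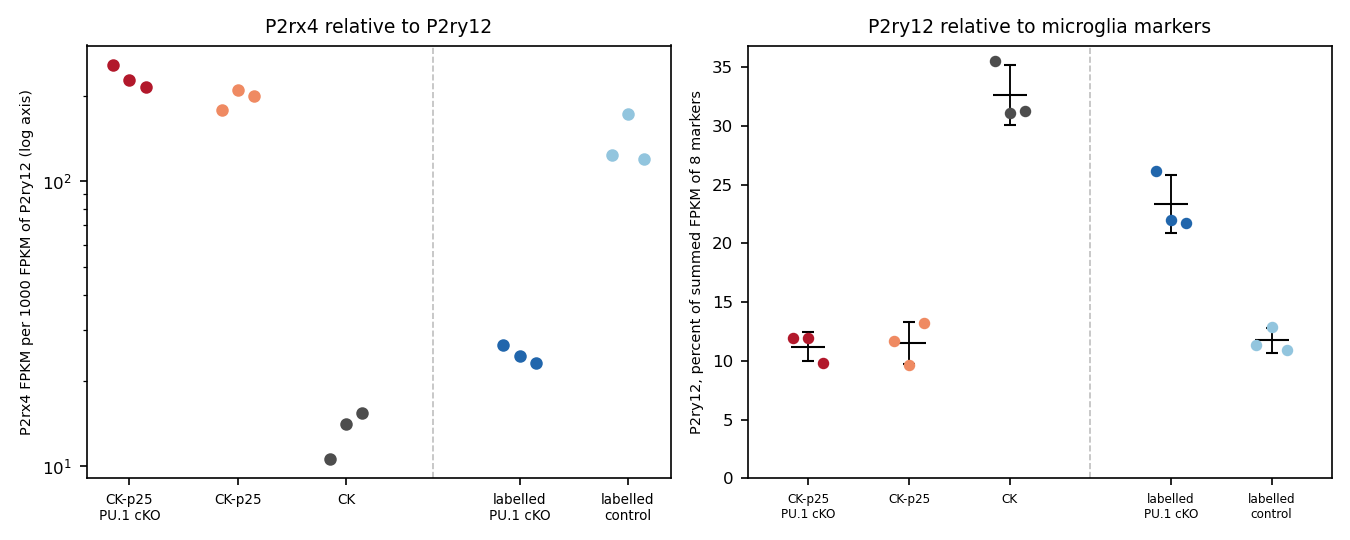
The left panel plots P2rx4 FPKM per 1000 FPKM of P2ry12 in each library on a log axis, and the right panel P2ry12 as a percent of the summed FPKM of 8 microglia markers, with the mean and 1 SD. Libraries with p25 lie between 179 and 256 on the left, against 10.6 to 15.4 in CK, and between 9.65 and 13.2 percent on the right, against 31.1 to 35.5 in CK.

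Entpd1 encodes CD39, the enzyme that cuts ATP and ADP to AMP at the cell surface. It had an FPKM of 128, 118 and 170 in CK-p25 PU.1 cKO, 160, 143 and 139 in CK-p25 libraries, and 230, 250 and 255 in CK. No library with p25 reached the lowest CK library. Entpd1 fell in CK-p25 to 60.0% of the CK mean (log2 difference -0.73 ± 0.14, limma adjusted p = 0.00465) and in CK-p25 PU.1 cKO to 56.6% (-0.83 ± 0.14, adjusted p = 0.00249). In the 3-month set it measured 240, 243 and 270 FPKM in labelled PU.1 cKO libraries, against 81.7, 71.8 and 83.1 FPKM in labelled control libraries. Its values spread little within either group, and the log2 difference was 1.66 ± 0.16 (limma adjusted p = 0.000699).

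Nt5e encodes CD73, the enzyme that turns AMP into adenosine, and stood near 0 in most libraries. Its FPKM was 1.33, 1.69 and 0.366 in CK-p25 PU.1 cKO, while it was listed at 0, 0.139 and 0 FPKM in CK-p25 and at 0, 0.0294 and 0.0914 FPKM in CK. Values were 0.225, 0 and 0 FPKM in labelled PU.1 cKO libraries, against 1.48, 0.715 and 2.16 FPKM in labelled control libraries. The 3 higher libraries of each set thus belonged to CK-p25 PU.1 cKO and to the labelled control. Nt5e fell below the filter on low values and was not tested. In a fit without the filter its log2 difference was 0.98 ± 0.22 between CK-p25 PU.1 cKO and CK (limma adjusted p = 0.0203), 0.97 ± 0.22 between CK-p25 PU.1 cKO and CK-p25 (adjusted p = 0.84) and -1.15 ± 0.24 between the labelled groups (adjusted p = 0.0239). No fold is given against libraries listed at 0, and the read depth behind these values is unknown.

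Adora3 encodes the A3 adenosine receptor, coupled to inhibitory G proteins. It had an FPKM of 26.4, 23.6 and 33.1 in CK-p25 PU.1 cKO, 41.2, 28.2 and 53.2 in CK-p25 libraries, and 57.8, 49.5 and 54.8 in CK. CK-p25 was the most variable group and overlapped both others. Adora3 fell in CK-p25 PU.1 cKO to 51.2% of the CK mean (log2 difference -0.95 ± 0.22, limma adjusted p = 0.0118). The difference of CK-p25 from CK did not pass (-0.44 ± 0.22, adjusted p = 0.165, limma) except without CK-p25 replicate 3 (-0.65, adjusted p = 0.0297), and that of CK-p25 PU.1 cKO from CK-p25 was -0.51 (95% interval from -1.02 to -0.01, adjusted p = 0.745). At 3 months it measured 56.5, 58.8 and 63.1 FPKM in labelled PU.1 cKO libraries, against 20.5, 12.8 and 25.3 FPKM in labelled control libraries (log2 difference 1.61 ± 0.25, limma adjusted p = 0.00409).

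**Figure D3:**
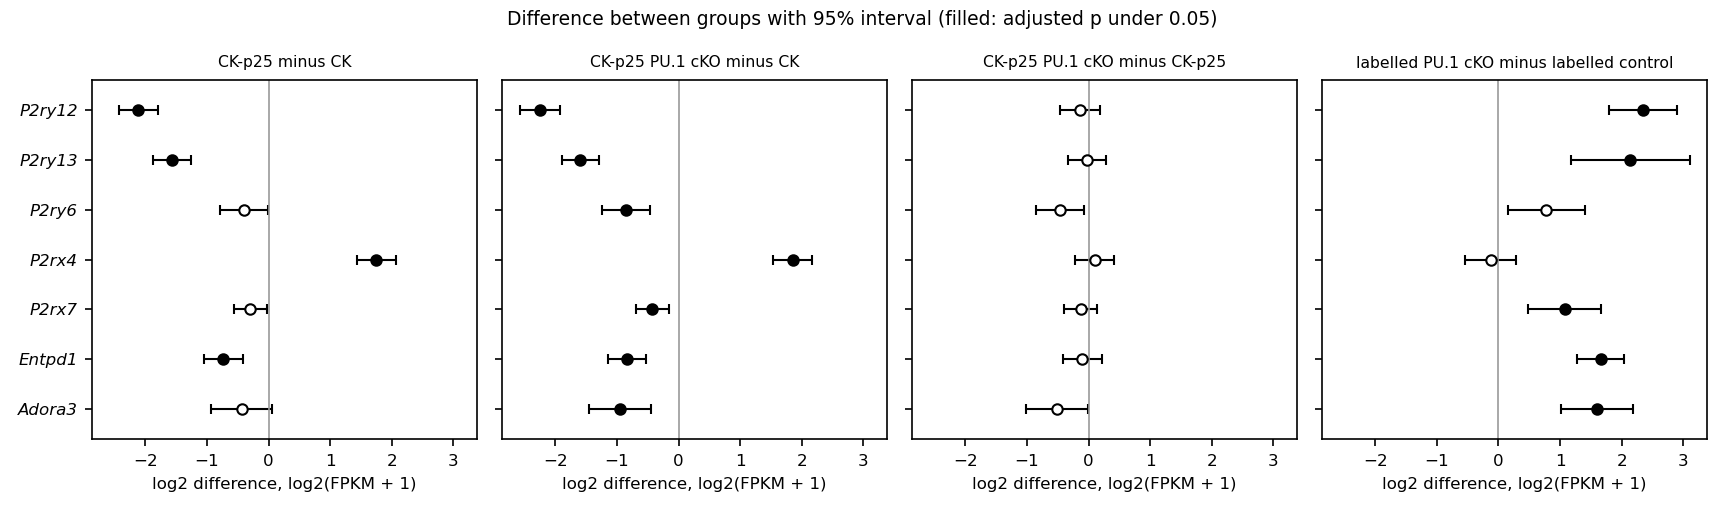
Each panel plots, for 1 comparison, the log2(FPKM + 1) difference of the 7 tested genes with its 95% interval from limma; filled points have an adjusted p under 0.05. P2rx4 is the only filled point right of 0 in the first 2 panels, no point is filled in the third, and 5 are filled in the fourth, where P2rx4 is at -0.12.

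Counted together, 1 of the 7 tested genes was called higher and 3 lower in CK-p25 against CK (adjusted p under 0.05), against 17.6% and 13.7% of all 10894 genes tested. Libraries did not overlap for 6 of the 7, against 46.5% of all genes. With quantile normalization 5 of the 7 were called lower in CK-p25, where 1947 of the 10894 genes were, against 1490 in the main fit. Without CK-p25 replicate 3 it was 6 of the 7, and the share of all genes called lower in that fit is not given here. In CK-p25 PU.1 cKO against CK, 1 was called higher and 6 lower, where 17.8% and 13.3% of all genes were called, and all 7 did not overlap, against 58.5% of all genes. In both comparisons the calls of all genes leaned to higher values (1922 higher and 1490 lower for CK-p25, 1937 and 1447 for CK-p25 PU.1 cKO), but to lower values after quantile normalization (1634 and 1947, and 1702 and 2003). The median log2 difference of the 7 genes was -0.44 in the first comparison and -0.86 in the second, whereas that of all genes was 0 and -0.001. These comparisons share the 3 CK libraries and are not independent.

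Between CK-p25 PU.1 cKO and CK-p25, 0% of genes were called in either direction by limma, 0 of the 7 among them, and 671 of the 10894 had an unadjusted p under 0.05. None of the 7 genes had libraries that did not overlap, against 9.38% of all genes. The median log2 difference of the 7 was -0.13, with values from -0.51 for Adora3 to 0.10 for P2rx4. At 3 months 5 of the 7 were called higher and 0 lower in labelled PU.1 cKO libraries, where 12.4% and 17.8% of 10845 genes were called, and 6 of 7 did not overlap, against 48.8% of all genes. Over all genes those calls were 1344 higher and 1925 lower, 1713 and 1649 after median centring, and 2086 and 1853 after quantile normalization. The median of the 7 genes was 1.61 on the log2 scale and that of all genes was -0.029.

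The order of the levels, which FPKM allows because it is per length, also differed between groups. P2ry12 and P2ry13 came first in all 5 groups, without overlap except between them in the labelled control. P2rx4 came next in CK-p25 PU.1 cKO and in CK-p25, where its libraries overlapped those of the following gene (Entpd1 in CK-p25 PU.1 cKO, P2ry6 in CK-p25), whereas it came after Adora3 in CK, with overlap between them. P2ry12 made up 40.9% to 43.9% of the summed FPKM of the 8 genes in CK-p25 PU.1 cKO libraries and 42.6% to 44.0% in CK-p25 libraries, against 61.8% to 63.8% in CK libraries. At 3 months, without p25, its share was 56.5% to 57.7% in labelled PU.1 cKO libraries, against 41.0% to 49.0% in labelled control libraries. Nt5e was last in every group.

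The sorted cells carried the markers of microglia. The 8 markers read for this purpose (Cx3cr1, Tmem119, Csf1r, Aif1, Fcrls, Sall1, Itgam and Ptprc) summed to 6571 to 8064 FPKM in CK-p25 PU.1 cKO, 7437 to 8424 in CK-p25, and 11636 to 12103 in CK. They summed to 14548 to 17170 FPKM in labelled PU.1 cKO libraries, against 4386 to 7670 in labelled control libraries. Between CK-p25 and CK, Cx3cr1, Tmem119, Csf1r and Sall1 fell and Aif1 and Ptprc rose, out of 8 tested (without the filter on low values Csf1r and Aif1 did not pass, at limma adjusted p of 0.18 and 0.0529), so the markers moved with the receptor genes in part. In bulk RNA, fewer cells of a type and less RNA per cell cannot be told apart. As a percent of the 8 markers summed, P2ry12 was 11.9, 11.9 and 9.81 in CK-p25 PU.1 cKO, 11.7, 9.65 and 13.2 in CK-p25 libraries, and 35.5, 31.1 and 31.3 in CK. P2ry13 (6.06 to 8.08 percent with p25, against 13.6 to 14.7 percent in CK) and P2rx4 (2.03 to 3.04 percent with p25, against 0.378 to 0.481 percent in CK) also kept their direction without overlap. P2rx7 by contrast was 0.984, 1.02 and 1.02 percent in CK-p25 PU.1 cKO, 0.968, 0.935 and 1.18 percent in CK-p25, and 0.847, 0.813 and 0.826 percent in CK, so on this scale it was higher in every library with p25 than in every CK library, opposite to its FPKM. Entpd1 was 1.79 to 2.11 percent in CK-p25 PU.1 cKO, 1.83 to 1.92 percent in CK-p25, and 1.90 to 2.19 percent in CK, so its groups overlapped. P2ry6 overlapped too, at 1.42 to 1.65 percent in CK-p25 PU.1 cKO, 1.67 to 2.41 percent in CK-p25, and 1.55 to 1.92 percent in CK. Adora3 was 0.358 to 0.410 percent in CK-p25 PU.1 cKO, below the 0.419 to 0.478 percent in CK, and 0.380 to 0.703 percent in CK-p25. These shares depend on which markers are summed.

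At 3 months P2ry12 was 26.1, 22.0 and 21.7 percent of the markers in labelled PU.1 cKO libraries, against 11.3, 12.9 and 10.9 percent in labelled control libraries, and P2rx4 was 0.695, 0.535 and 0.4997 percent against 1.41, 2.22 and 1.31 percent. P2ry13 (11.48 to 15.5 percent against 5.596 to 10.3 percent) and Adora3 (0.366 to 0.404 percent against 0.291 to 0.329 percent) were also higher in the labelled PU.1 cKO on this scale. The called genes P2rx7 and Entpd1 were not apart on it: P2rx7 was 0.770, 0.754 and 0.702 percent in labelled PU.1 cKO libraries, against 0.614, 1.84 and 0.636 percent in labelled control libraries, and Entpd1 was 1.55, 1.67 and 1.57 percent against 1.21, 1.64 and 1.08 percent. P2ry6 turned round, at 1.09, 1.34 and 1.32 percent in labelled PU.1 cKO libraries, against 1.70, 1.83 and 2.06 percent in labelled control libraries.

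Platelets also use P2ry12 and P2rx1, and 6 platelet markers were read for that reason. They summed to 20.5 to 24.7 FPKM in CK-p25 PU.1 cKO, 10.4 to 26.4 in CK-p25, and 74.3 to 90.9 in CK, and to 51.6 to 85.1 FPKM in labelled PU.1 cKO libraries against 18.8 to 35.3 in labelled control libraries. The sum moved with P2ry12, but it rested on few of the 6 markers. In CK, in CK-p25 and in each 3-month group, 4 of them were under 1 FPKM in all libraries. Only 2 were tested. Gp9, a platelet glycoprotein gene, fell in CK-p25 against CK (log2 difference -4.19 ± 0.26, limma adjusted p = 2.92e-05), and Itgb3 did not pass (-0.61 ± 0.33, adjusted p = 0.197). At 3 months Gp9 was higher in labelled PU.1 cKO libraries (1.95 ± 0.20, limma adjusted p = 0.000843), and Itgb3 did not pass (0.58 ± 0.49, adjusted p = 0.389). The megakaryocyte integrin gene Itga2b stayed at or under 0.396 FPKM in every library, and Ppbp, the platelet chemokine gene, at or under 1.90 FPKM. The part of platelet RNA in the P2ry12 values was not tested. Of 6 mast cell markers, a cell type that uses Adora3, 5 or more were under 1 FPKM in all libraries of each group, and Cma1 was listed at 0 in all of them. The 6 summed to 50.5 FPKM in labelled control replicate 1, against 2.99 or less in every other library.

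Some libraries stood apart. The library labelled control replicate 1 had 13990 FPKM summed over 4 neutrophil markers, against 315 or less in the other 3-month libraries, and 951 FPKM over 5 monocyte markers, against 79.8 or less. The labelled control replicate 2 had 1528 FPKM of 6 border macrophage markers and the lowest sum of microglia markers. The other labelled control libraries had 474 and 608 FPKM of these 6 markers, still above the 261 to 335 FPKM in labelled PU.1 cKO libraries. Of the 6 markers, 4 were called lower in labelled PU.1 cKO libraries (Cbr2, F13a1, Lyve1 and Pf4), where 17.8% of all genes were. Without labelled control replicate 1 the log2 differences of P2ry12, P2ry13, Entpd1 and Adora3 were 2.40, 2.20, 1.68 and 1.67. Without labelled control replicate 2 they were 2.18, 1.68, 1.59 and 1.35. All 8 of these values passed the test (adjusted p from 0.000576 to 0.0271, limma). CK-p25 replicate 3 is the only 4.5-month library whose read file carries a different run prefix, and 42.1% of genes were listed at 0 in it. Without it P2ry12, P2ry13, Entpd1 and P2rx4 differed between CK-p25 and CK by -2.20, -1.63, -0.69 and 1.65. CK-p25 replicate 2 had 782 FPKM of the neutrophil markers, against 0 and 1.77 in the other CK-p25 libraries, and 532 FPKM of 6 oligodendrocyte markers, against 113 and 167. Without that library the same 4 genes differed by -1.96, -1.41, -0.71 and 1.86, and all 4 passed (adjusted p from 6.35e-05 to 0.0156, limma). At 4.5 months, astrocyte markers summed to 90.0 to 185 FPKM in CK-p25 PU.1 cKO, 84.9 to 298 in CK-p25, and 47.2 to 66.1 in CK, and monocyte markers to 35.1 to 56.1 FPKM in CK-p25 PU.1 cKO, 17.4 to 50.5 in CK-p25, and 3.87 to 17.9 in CK. Border macrophage markers summed to 6.49 FPKM in CK replicate 1, against 86.2 to 386 FPKM in the other 4.5-month libraries. The part of these cells in the receptor results was not tested.

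The wider pathway was read in 7 lists that hold 53 further genes, of which 35 were tested at 4.5 months and 36 at 3 months. In CK-p25 against CK, 6 of the 35 rose and 6 fell, where 17.6% and 13.7% of all genes did, so these counts lie near the background. In CK-p25 PU.1 cKO against CK, 6 rose and 10 fell, where 17.8% and 13.3% of all genes did. None passed between CK-p25 PU.1 cKO and CK-p25, and 7 of the 36 were higher and 7 lower in labelled PU.1 cKO libraries, where 12.4% and 17.8% of all genes were. In a fit without the filter on low values, Ahcy in CK-p25 PU.1 cKO against CK and Gnaq and Kcnk13 between the labelled groups, which are described below, did not pass (adjusted p from 0.0569 to 0.0864, limma).

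Among the other receptors, those that changed had low levels. Adora1, the inhibitory A1 adenosine receptor gene, had an FPKM of 6.89, 7.12 and 6.28 in CK-p25 PU.1 cKO, 9.0, 7.29 and 9.91 in CK-p25 libraries, and 0.827, 1.10 and 0.711 in CK. It rose where Adora3 did not, by 2.37 ± 0.13 in CK-p25 and 2.05 ± 0.13 in CK-p25 PU.1 cKO on the log2 scale (limma adjusted p = 1.85e-05 and 3.28e-05). At 3 months Adora1 was lower in labelled PU.1 cKO libraries, at 1.11, 0.677 and 0.712 FPKM, against 5.88, 14.3 and 2.05 FPKM in labelled control libraries (log2 difference -1.91 ± 0.54, limma adjusted p = 0.0337). Adora1 averaged under 1 FPKM in the labelled PU.1 cKO libraries and was tested at 3 months only because it was higher in the labelled control. Without the filter on low values this 3-month difference did not pass (limma adjusted p = 0.0706). Adora2a and Adora2b stayed under 1 FPKM in all 15 libraries. P2ry14, a UDP-sugar receptor gene of the P2ry12 cluster, rose by 1.65 ± 0.18 in CK-p25 and 2.22 ± 0.18 in CK-p25 PU.1 cKO (limma adjusted p = 0.00037 and 8.29e-05), with 4.15 to 5.32 FPKM in CK-p25 PU.1 cKO, 2.26 to 3.41 in CK-p25, and 0 to 0.327 in CK. Adora1 and P2ry14 averaged under 1 FPKM in CK and were tested only because they were higher in the other groups, so a gene as low in those groups as in CK would not have been tested. The same holds for the fall of Ada below, which averaged under 1 FPKM in CK-p25 PU.1 cKO. In the fit without the filter both kept their calls against CK (adjusted p from 8.08e-05 to 0.000801, limma). P2ry2, a receptor for ATP and UTP next to P2ry6, rose in CK-p25 by 1.35 ± 0.34 (adjusted p = 0.0172, limma). P2rx1, a fast ATP-gated channel gene, fell by 1.55 ± 0.34 in CK-p25 and 1.64 ± 0.34 in CK-p25 PU.1 cKO (limma adjusted p = 0.00935 and 0.00719), and it was also lower in labelled PU.1 cKO libraries (9.75 to 11.1 FPKM) than in labelled control libraries (18.3 to 19.4 FPKM). Of the 3 receptor lists, these 4 genes were the ones tested at 4.5 months.

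Of 11 other ectonucleotidase genes, 4 were tested at 4.5 months, and Enpp1 and Enpp4 rose, although Enpp4 did not pass in CK-p25 without the filter on low values (0.35, limma adjusted p = 0.067). Enpp1, whose product cuts ATP to AMP and pyrophosphate, had an FPKM of 18.8, 18.8 and 16.7 in CK-p25 PU.1 cKO, 20.0, 17.0 and 14.03 in CK-p25 libraries, and 5.77, 5.23 and 4.97 in CK. Its log2 difference from CK was 1.497 ± 0.13 in CK-p25 and 1.59 ± 0.13 in CK-p25 PU.1 cKO, opposite to that of Entpd1 (limma adjusted p = 0.000108 and 7.59e-05). It was lower in labelled PU.1 cKO libraries (4.29 to 8.17 FPKM) than in labelled control libraries (15.3 to 20.3 FPKM, log2 difference -1.26 ± 0.25, limma adjusted p = 0.0105). Enpp2 varied from 1.25 to 106 FPKM over the 9 libraries and did not pass. Cd38, an NAD-consuming enzyme gene, passed only between the labelled groups, where it was lower in the labelled PU.1 cKO by 0.97 ± 0.28 on the log2 scale (limma adjusted p = 0.0364, but 0.0732 without the filter).

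Of 11 genes of adenosine uptake and metabolism, 10 were tested. In CK-p25 against CK, Pnp, Ampd3 and Slc29a3 fell and Ampd2 rose. Pnp, purine nucleoside phosphorylase, had an FPKM of 27.9, 21.3 and 24.1 in CK-p25 PU.1 cKO, 26.9, 29.2 and 36.8 in CK-p25 libraries, and 62.4, 55.8 and 60.3 in CK, with log2 differences of -1.26 ± 0.14 for CK-p25 PU.1 cKO and -0.93 ± 0.14 for CK-p25 (limma adjusted p = 0.000357 and 0.00155). Ampd3, an AMP deaminase gene, fell by 0.78 ± 0.12 in CK-p25, and Slc29a3, a lysosomal nucleoside transporter gene, by 0.47 ± 0.13. In CK-p25 PU.1 cKO against CK, Ada, Nt5c2 and Slc29a1 also fell and Ahcy also rose. At 3 months Slc29a3 was higher in labelled PU.1 cKO libraries by 1.59 ± 0.22, and Adk and Ahcy were lower, with log2 differences of -2.23 ± 0.34 and -2.11 ± 0.28 (limma adjusted p = 0.00277, 0.00402 and 0.00238). Adk encodes adenosine kinase and measured 5.50 to 7.28 FPKM in labelled PU.1 cKO libraries against 18.6 to 49.6 FPKM in labelled control libraries.

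Of 5 tested genes of nucleotide release, Lrrc8a, a volume-regulated anion channel subunit, fell in CK-p25 by 0.80 ± 0.21 (limma adjusted p = 0.0228), and Panx1, the pannexin channel gene, did not pass (0.22 ± 0.10, adjusted p = 0.142). Calhm2 was higher in labelled PU.1 cKO libraries by 1.51 ± 0.28 (adjusted p = 0.00749, limma). Of 12 genes of receptor coupling and effectors, all tested, Orai1, the store-operated calcium channel gene, fell in CK-p25 by 0.66 ± 0.11 and in CK-p25 PU.1 cKO by 0.81 ± 0.11, and Arrb2 and Itpr2 fell in CK-p25 PU.1 cKO against CK. Kcnk13, the potassium channel gene known to act with P2ry12 in microglia, was higher in labelled PU.1 cKO libraries by 1.29 ± 0.35 (limma adjusted p = 0.0291) and did not pass at 4.5 months. Gnaq, Itpr2 and Plcb2 were also higher and Gnb1 was lower in labelled PU.1 cKO libraries.

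**Figure D4:**
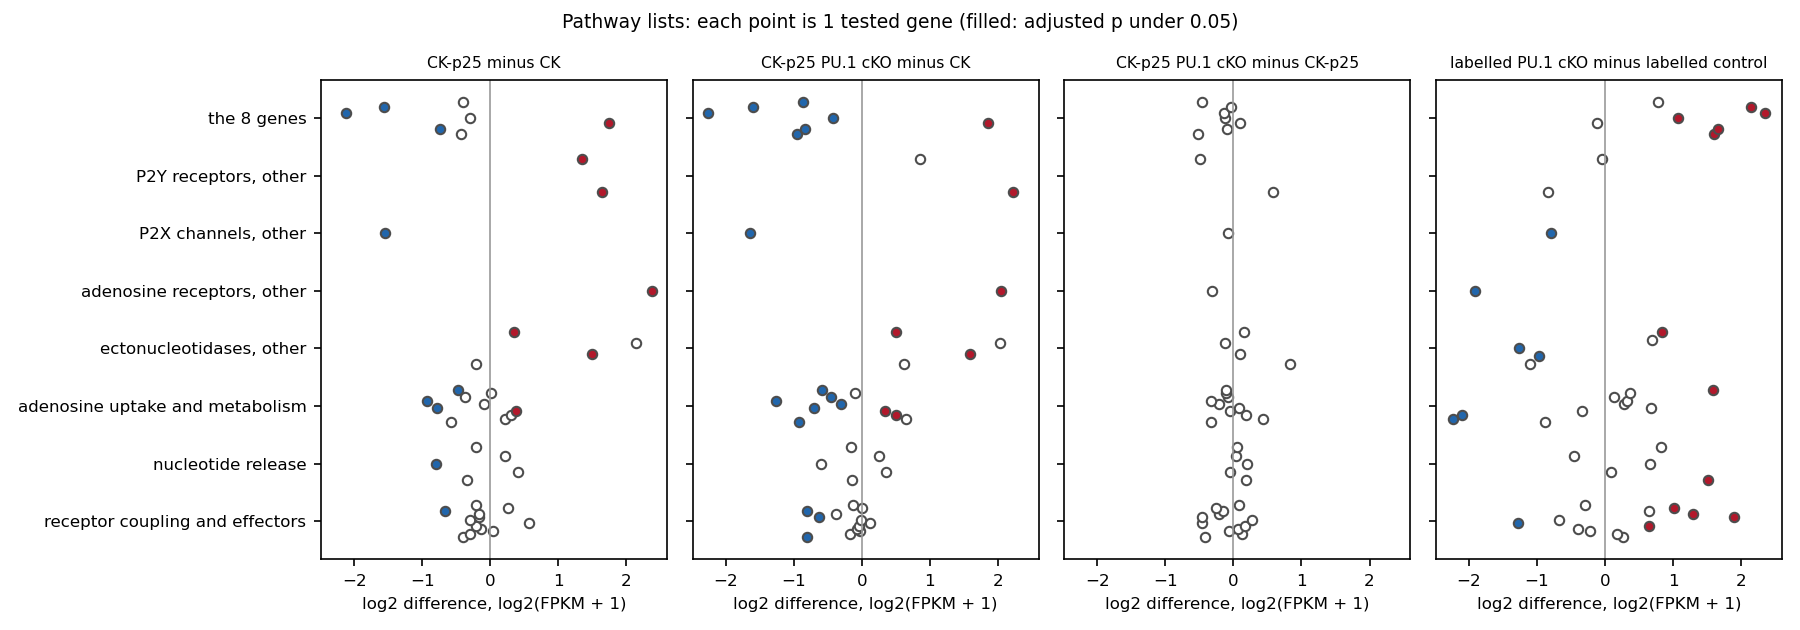
Each point is the log2(FPKM + 1) difference of 1 tested gene, by list, in the 4 comparisons; filled points have an adjusted p under 0.05 (red higher, blue lower). In the first 2 panels the other P2Y receptor, adenosine receptor and ectonucleotidase lists have filled points on the right and none on the left. These lists hold only 2, 1 and 4 tested genes. Adora1 and P2ry14 averaged under 1 FPKM in CK and were tested only because they were higher in the other groups. P2rx1, the only tested gene of the other P2X list, is filled on the left in both panels. In the third panel no point is filled.

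Genes beside the 8 in the RefSeq annotation were read for comparison, 11 of them tested at 4.5 months. In CK-p25 against CK, 2 rose and 5 fell, where 17.6% and 13.7% of all genes did. Med12l, which holds P2ry12 and P2ry13, fell by 0.97 ± 0.13, and Fchsd2, a neighbour in the region of P2ry6, fell by 1.20 ± 0.12 (limma adjusted p = 0.00109 and 0.000269). Since the library kits do not mark strand, reads of Med12l in shared sequence cannot be told apart from those of P2ry12 and P2ry13. Kdm2b, near P2rx4 and P2rx7, fell by 0.54 ± 0.11 while P2rx4 rose. Camkk2, which overlaps P2rx4, did not pass in CK-p25 against CK (0.17 ± 0.13, adjusted p = 0.343) and rose by 0.40 ± 0.13 in CK-p25 PU.1 cKO (adjusted p = 0.0432, limma, but 0.0807 without the filter).

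The genes whose pattern over the 9 libraries of 4.5 months was most like that of each gene were found by the root-mean-square difference of centred log2(FPKM + 1) values, over all tested genes. Those of P2ry12 included Slc5a10 at 0.21 and Ccdc162 at 0.23. Those of P2ry13 were Abhd15, Nrip1 and Selplg, at 0.11 to 0.12, and those of P2rx4 were Plin3, H2-T23 and Anxa4, at 0.12 to 0.14. Adora3 and P2ry6 were among the 3 nearest of each other, at 0.11. P2rx7 had Srm, Strada and E2f5 at 0.04 to 0.05, and Entpd1 had Col27a1, Ipo13 and Tifab at 0.08. The values describe likeness over libraries that share groups, and a gene with little variation reaches a low value more easily.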

How the data were processed

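The authors deposited 2 tables of FPKM values, one per age set, and the submitters' processing notes name TopHat, Bowtie, Cufflinks 2.0.0 and mm9. The gene annotation and read depth are not given in the sources used here, and FPKM allows no count model. cDNA was made with SMART-Seq v4 and libraries with Nextera XT, per the labels' protocols. The 4 chromatin immunoprecipitation samples were not analysed here. The FPKM of a library summed to 449784 to 622613 in the 3-month table and to 475007 to 650063 in the 4.5-month table.

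A pseudocount of 1 was added before taking log2, and genes averaging under 1 FPKM in a table were left out. A difference on this scale understates the change of low genes. Tests used limma 3.58.1 under R 4.3.3 (mean-variance trend, two-sided, Benjamini-Hochberg over all tested genes, threshold 0.05), with the 9 libraries of 4.5 months in 1 fit and the 6 of 3 months in another. The fit was tested on simulated data. The 2 tables were normalized separately, so levels were compared only within each. The 8 genes and all lists were chosen with earlier results of these data known. Named pathway genes were up to 4 of a list with the smallest p in CK-p25 minus CK, plus those called in another comparison. Promoter windows came from RefSeq (GRCm38.p6), and no coordinates were converted between builds. Alternatives were the pseudocount, the filter, quantile normalization, median centring, no trend, a replicate block, only the compared libraries, exact permutation and leaving out each library. Of the microglia markers and the genes most like P2ry12, 1 each is not reported here, and that marker was left out of every marker sum.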

Additional observations from a re-analysis of the deposited data

Results flagged for a closer look

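Nt5e stood out because its difference had opposite signs in the age sets. In CK-p25 PU.1 cKO minus CK-p25 the mean difference was 0.97 on the log2(FPKM + 1) scale, with every CK-p25 PU.1 cKO library (0.366 to 1.69 FPKM) above every CK-p25 library (0 to 0.139 FPKM). In labelled PU.1 cKO minus labelled control it was -1.15, with 0 to 0.225 FPKM against 0.715 to 2.16 FPKM. The difference between the age sets was not tested, since the 2 tables were normalized separately, and the 3-month sign depends on titles that the source names and Spi1 contradict. Under the source names the sign would be the same in both sets. Nt5e is at or under 2.16 FPKM in all 15 libraries. Lymphocyte markers summed to 3.34, 30.4 and 43.2 FPKM in the CK-p25 PU.1 cKO libraries with 1.33, 1.69 and 0.366 FPKM of Nt5e. The sums were 19.3 to 23.1 FPKM in CK-p25. Single markers went different ways between these groups, with log2 differences of -1.32 for Cd79b, 1.24 for Cd3e, 1.29 for Cd3g and 1.77 for Nkg7. None of these 4 passed (limma adjusted p = 0.745). At 3 months the sums were 50.6 to 66.9 FPKM in labelled PU.1 cKO libraries, against 12.1 to 20.5 FPKM in labelled control libraries. Of the 6 markers, 5 were under 1 FPKM in all labelled PU.1 cKO libraries and 4 in all labelled control libraries. The part of lymphocytes in the Nt5e values was not tested.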

How the results depend on the processing

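The 28 differences of the 7 tested genes had 476 alternative values from limma, with exact permutation left out of this count. Of these, 449 kept their direction and side of the threshold, 10 lost the call, 10 gained it, 7 moved without a call, and 0 turned a called direction. P2ry12, P2ry13, Entpd1 and P2rx4 kept their calls against CK in every limma alternative. Of the 8 genes, 3 were called lower in CK-p25 minus CK, but 5 with quantile normalization and 3 to 6 as each library was left out. Over all genes, 1490 were called lower in the main fit and 1947 with quantile normalization. Without the filter on low values Nt5e was tested too, which gave 2 genes higher in CK-p25 PU.1 cKO minus CK and 1 lower in the labelled PU.1 cKO. Leaving out each library moved the count of all genes lower in CK-p25 minus CK between 902 and 2162, lower in CK-p25 PU.1 cKO minus CK between 908 and 2398 (2396 with only the compared libraries), higher in the labelled PU.1 cKO between 580 and 2010 (2086 with quantile normalization) and lower in it between 960 and 2721. Between CK-p25 PU.1 cKO and CK-p25 it gave 0 to 12 genes higher and 0 to 13 lower. For that comparison 1 gene was higher and 1 lower without the filter, 1 was higher with quantile normalization and 2 with only the compared libraries. The causes were not tested.

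Whether replicate numbers pair the samples is unknown. Deviations from the group mean correlated at -0.049 to 0.166 between same-numbered libraries and at -0.264 to 0.154 between others. With 3 libraries a group, these correlations cannot settle it. With a replicate block, genes called were 1903 higher and 1404 lower in CK-p25 minus CK, 1925 and 1326 in CK-p25 PU.1 cKO minus CK, 0 and 0 in CK-p25 PU.1 cKO minus CK-p25, and 1367 and 2014 in the labelled PU.1 cKO, and P2ry6 was then also called in CK-p25 minus CK (adjusted p = 0.0331) and in the labelled PU.1 cKO (adjusted p = 0.0421). An exact permutation test of 3 libraries against 3 cannot go below p = 0.1, so it cannot call any gene. Read depth is unknown, which limits low genes such as Nt5e most.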
